A study of Mus musculus with 6 samples.

Results

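The genes described here are 40 named genes of NF-κB, TNF receptor and Toll-like receptor (TLR) signalling in a mouse endothelial cell line, listed by gene name with no threshold on their values, though with earlier results of these data known. They comprise 8 receptors, 18 adaptors and kinases, the 5 NF-κB subunits, 7 inhibitors and feedback regulators, and 2 genes that the pathway is known to induce. All 40 were among the 29955 gene names of the deposited RNA-seq table. Levels were given as FPKM, the fragments assigned to a gene scaled to its transcript length and to the fragments mapped in its library. All 40 averaged at least 1 FPKM over the libraries, the limit for testing, which 11816 genes passed.

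The cells were MS-1, an established line of mouse endothelial cells that was immortalised with a viral large T antigen. They were transfected with a locked nucleic acid (LNA) microRNA inhibitor, labelled LNA-NC, LNA-miR31 or LNA-miR27, where NC was taken to be a negative control sequence. Each transfection was then kept for 72 hours without TGF-β2 or with 1 ng/ml of it, which gave 6 conditions of 1 library each. The effect of TGF-β2 therefore had 3 pairs of libraries, and each inhibitor had 2 pairs against the negative control. Within a single TGF-β2 state an inhibitor was compared with the control as 1 library against 1, so those differences have no replicate and no test. No label says that libraries came from separate cultures, and p-values can only reflect how much these 6 libraries scatter. The question put to the 40 genes was whether they follow Stk40, which encodes a pseudokinase with a reported restraining role in NF-κB signalling and was higher in the miR-31 inhibitor library under TGF-β2.

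NF-κB is a family of dimeric transcription factors that wait in the cytoplasm bound to IκB proteins. Receptors of the TNF, interleukin-1 and Toll-like families recruit TRAF, RIP and MyD88 adaptors, which activate the IκB kinase complex, and IκB is then degraded so that RelA and p50 dimers enter the nucleus. A slower branch runs through the kinase NIK, encoded by Map3k14, and releases RelB and p52. In endothelial cells the pathway is known for inducing adhesion molecules and chemokines, and also its own inhibitors, IκBα and A20.

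The libraries differed little in depth as far as the table shows it. Depth was taken from the commonest ratio between low values, under 0.05 FPKM, of a library and of the untreated negative control. By this measure the 5 other libraries had 81.7% to 90.3% of that control's depth. Per library, 11680 to 11791 genes reached 1 FPKM. The number of fragments behind a value is not known, so no counting interval can be given. Of 14 endothelial markers, 13 were tested, among them Pecam1 at 593 to 647 FPKM and Cdh5 at 167 to 207, while Cldn5 was at most 0.036. Their summed level was 1907 to 2041 FPKM, though single markers rose or fell with TGF-β2, as given below. Of 14 leukocyte markers in the table, 12 stayed under 1 FPKM in all libraries, and Ptprc, the common leukocyte antigen, reached at most 0.026. The other 2 were Lyz2, at 1.03 to 1.68 FPKM, and Cd68, at 105 to 211. The pancreas markers summed to at most 0.235 FPKM and every library had Epcam at 0.

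On the FPKM scale, which allows levels of different genes to be compared, the 40 genes ranged over their means from 1.04 to 300.1 with a median of 13.7. The highest was Tnfrsf12a, the receptor of the TNF-family ligand TWEAK. It was followed by Tnfaip2 at a mean of 87.8 FPKM, Nfkbia, which encodes IκBα, at 78.0, and the lipopolysaccharide receptor Tlr4 at 56.9. The lowest were Rel at 1.04, the IκB-like cofactor Bcl3 at 1.22 and the acute-phase gene Saa3 at 1.39. No member was listed at 0 in any library. The ranges over libraries of Tnfaip2, Nfkbia and Tlr4 overlapped, as did those of Rel, Bcl3 and Saa3. Tlr4 and Saa3 also overlapped members outside these sets, such as Chuk at 41.7 to 45.9 FPKM and Traf5 at 1.61 to 2.72. The order among genes that overlap is not resolved. For 13 members the table lists other names at the same place. Ikbkg shares its place with G6pdx, which stood at 41.6 to 49.5 FPKM, Ripk1 with Serpinb6a and Nqo2, Nfkb2 with Psd, and Tnfrsf12a with Hcfc1r1 and Thoc6. How fragments were divided among such names is not given in the sources used here.

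**Figure D1:**
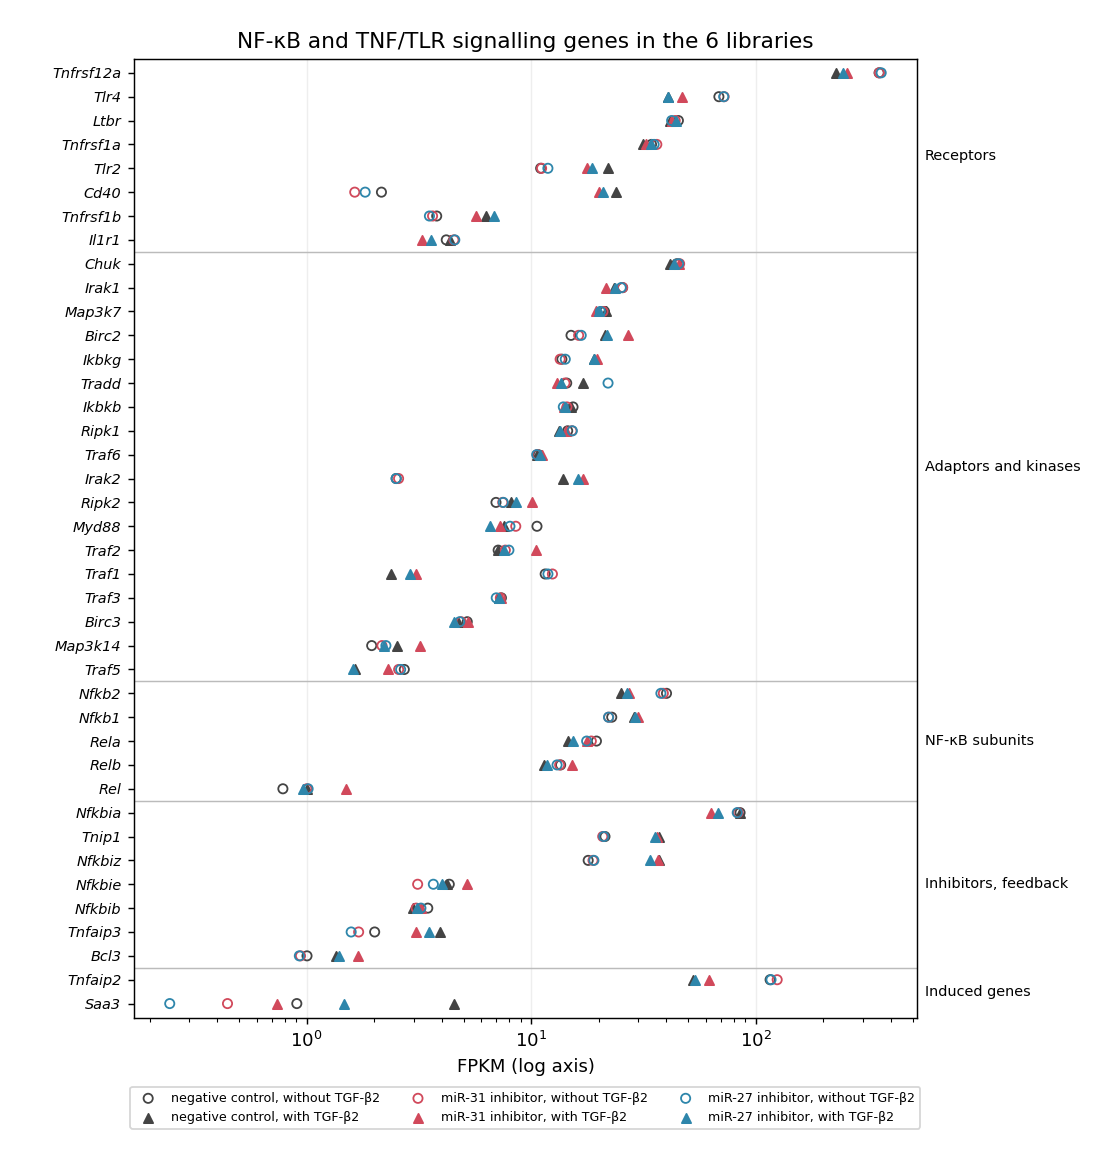
FPKM (log axis) of the 40 genes in each of the 6 libraries, 1 point per library, grouped by role and ordered by mean level; open circles are without TGF-β2 and filled triangles with it. Cd40 and Irak2 show triangles well to the right of their circles, Traf1 and Tnfaip2 well to the left, and Saa3 spreads from 0.246 to 4.53 FPKM.

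With TGF-β2 the 40 genes divided by gene rather than moving as a block. In the additive limma fit over all 6 libraries (inhibitor and TGF-β2 as terms, log2(FPKM + 1), Benjamini-Hochberg adjustment over 11816 genes, threshold 0.05), 13 members rose, 7 fell and 20 did not pass. Over all genes tested 22.7% rose and 27.5% fell, together 50.2%, so the 50.0% of members called lies at the background. The median difference was −0.023 over the members and −0.018 over all genes tested. Of the 40, 22 (55.0%) had the 3 libraries with TGF-β2 entirely above or below the 3 without, against 58.4% of all genes tested. The response had the same sign in all 3 transfections for 26 members (65.0%), against 73.3% of all genes. The size of the change was at least 0.5 for 14 of the 20 called members and at least 1 for 4 of them, Cd40, Irak2, Traf1 and Tnfaip2. A fold change on the log2(FPKM + 1) scale understates the change of genes at low levels. In cultures measured in bulk, fewer cells of a type and less RNA per cell cannot be told apart.

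Among the receptors 3 rose, 2 fell and 3 did not pass. Cd40, a TNF receptor family member that signals through TRAF proteins and lies at chr2:164881136-164897154 (mm9), had the largest change of all 40. In the order negative control, miR-31 inhibitor and miR-27 inhibitor, kept throughout, it was at 2.15, 1.64 and 1.82 FPKM without TGF-β2 and at 23.9, 20.0 and 20.9 with it. The 2 sets lie far apart, and the fitted difference was 2.98 ± 0.04 (SE of the fit; limma adjusted p = 1.81e-05). Tlr2, which recognises bacterial lipopeptides (chr3:83640194-83645530, mm9), was at 11.0, 11.1 and 11.9 FPKM without TGF-β2 and at 22.0, 17.7 and 18.6 with it. Its difference was 0.72 ± 0.08 (limma adjusted p = 0.00206), with the negative control library highest. Tnfrsf1b, the second TNF receptor, rose by 0.64 ± 0.06.

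Tlr4 moved the opposite way to Tlr2. It stood at 68.6, 72.4 and 72.1 FPKM without TGF-β2 and at 40.9, 46.9 and 40.5 with it, a fall of all 3 transfections with no overlap (−0.72 ± 0.05, limma adjusted p = 0.000635; chr4:66488845-66503830, mm9). Tnfrsf12a, the most abundant member, also fell (−0.56 ± 0.05). The main TNF receptor Tnfrsf1a and the lymphotoxin β receptor Ltbr, which feeds the NIK branch, changed little in size (−0.11 and −0.03) and did not pass. Il1r1, the interleukin-1 receptor, did not pass either. It was at 4.19, 4.53 and 4.57 FPKM without TGF-β2 and at 4.36, 3.26 and 3.59 with it, so of the treated libraries only the control lay within the untreated range. Without either control library the difference was −0.33 and passed (limma adjusted p = 0.0303).

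Of the 18 adaptors and kinases 4 rose, 3 fell and 11 did not pass. Irak2, a kinase-like adaptor of the MyD88 complex (chr6:113588461-113645020, mm9), was at 2.51, 2.57 and 2.50 FPKM without TGF-β2 and at 13.9, 17.0 and 16.1 with it. Its difference was 2.24 ± 0.06 (limma adjusted p = 4.68e-05), and the untreated libraries were nearly equal. Traf1, an adaptor that binds cIAP proteins at TNF receptors (chr2:34798778-34817292, mm9), went the other way. It fell from 11.6, 12.4 and 11.9 FPKM to 2.37, 3.06 and 2.88, a difference of −1.79 ± 0.05 (limma adjusted p = 5.37e-05).

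The other called adaptors moved less. Birc2, which encodes the ubiquitin ligase cIAP1, rose by 0.51, Ikbkg, the scaffold subunit NEMO of the IκB kinase complex, by 0.45, and Ripk2, the kinase of NOD receptors, by 0.25. Traf5 (−0.36) and Myd88 (−0.30) fell. The call of Traf5 was lost in 5 of 11 alternative settings, and those of Myd88 and Ripk2 in 3 each. The 2 catalytic IκB kinases did not pass, Chuk at −0.06 and Ikbkb at −0.01, nor did the core adaptors Traf2, Traf3, Traf6, Tradd and Ripk1, the kinases Map3k7 and Irak1, or Birc3. Map3k14 was at 1.95, 2.16 and 2.25 FPKM without TGF-β2 and at 2.52, 3.18 and 2.21 with it (0.21 ± 0.09, limma adjusted p = 0.103). The 2 sets overlap only through the miR-27 inhibitor pair, and with either of its libraries left out the difference was 0.33 and passed (limma adjusted p = 0.0307). Tradd, the adaptor of the main TNF receptor, had 14.4, 14.1 and 22.0 FPKM without TGF-β2 and 17.1, 13.0 and 13.6 with it. The untreated miR-27 inhibitor library was the highest of the 6, and the 3 responses differed in sign.

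The NF-κB subunits themselves split. Nfkb1, the precursor of p50 (chr3:135247619-135354511, mm9), rose from 22.9, 22.2 and 22.1 FPKM to 28.8, 30.0 and 28.9 (0.37 ± 0.04, limma adjusted p = 0.00243). Nfkb2, the precursor of p52 in the NIK branch (chr19:46378083-46401646, mm9), fell from 40.1, 38.8 and 37.9 FPKM to 25.2, 27.4 and 26.7 (−0.54 ± 0.05, limma adjusted p = 0.00135). Neither gene's libraries overlapped between the states.

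Rela, Relb and Rel, the subunits with activation domains, did not pass. Rela (chr19:5637490-5648130, mm9) was at 19.5, 18.5 and 17.7 FPKM without TGF-β2 and at 14.5, 17.8 and 15.3 with it (−0.22 ± 0.07, limma adjusted p = 0.0642). It was lower with TGF-β2 in each transfection, least so with the miR-31 inhibitor. With either miR-31 inhibitor library left out the difference was −0.30 and passed (limma adjusted p = 0.0175). Relb (chr7:20191571-20214787, mm9) had 13.5, 13.4 and 13.0 FPKM without TGF-β2 and 11.4, 15.2 and 11.8 with it. The miR-31 inhibitor library lay above the untreated range and the other 2 below it, and the fitted difference was −0.06 ± 0.09 (limma adjusted p = 0.568). Leaving out either miR-31 inhibitor library gave −0.18 for Relb (limma adjusted p = 0.0333), and leaving out either control library gave 0.019. Rel was near the 1 FPKM limit for testing, at 0.784, 1.00 and 1.02 FPKM without TGF-β2 and at 1.00, 1.49 and 0.960 with it.

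Inhibitors and feedback regulators rose in 4 of 7 cases and fell in none, where 22.7% of all genes tested rose and 27.5% fell. Nfkbiz, an inducible nuclear IκB protein (chr16:55811490-55838754, mm9), was at 18.0, 18.9 and 19.0 FPKM without TGF-β2 and at 37.0, 36.6 and 33.7 with it (0.91 ± 0.05, limma adjusted p = 0.000347). Tnip1, a partner of A20 that binds ubiquitin chains (chr11:54724289-54776442, mm9), went from 21.3, 20.8 and 21.1 FPKM to 37.2, 36.2 and 35.5 (0.76 ± 0.04, limma adjusted p = 0.000231). Tnfaip3, which encodes A20 itself (chr10:18720717-18735216, mm9), went from 2.01, 1.70 and 1.58 FPKM to 3.94, 3.07 and 3.52 (0.70 ± 0.06, limma adjusted p = 0.000765). Each of the 3 had every library with TGF-β2 above every library without it. Bcl3 rose by 0.34.

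Nfkbia, the classical feedback inhibitor (chr12:56590396-56593634, mm9), did not share that rise. It was at 85.3, 83.6 and 82.8 FPKM without TGF-β2 and at 84.9, 63.6 and 67.9 with it. The control pair was level while both inhibitor libraries with TGF-β2 were lower, and the fitted difference of −0.23 ± 0.08 did not pass (limma adjusted p = 0.0747). Without either control library it was −0.34 and passed (limma adjusted p = 0.0293). The IκB genes Nfkbib (−0.05) and Nfkbie (0.22) did not pass.

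The 2 induced genes went in opposite directions. Tnfaip2, a TNF-induced endothelial gene (chr12:112680872-112737833, mm9), fell from 116, 125 and 117 FPKM to 52.7, 62.2 and 53.9 (−1.07 ± 0.05, limma adjusted p = 0.000139). Saa3, an inducible serum amyloid A gene (chr7:53967368-53971046, mm9), was at 0.904, 0.444 and 0.246 FPKM without TGF-β2 and at 4.53, 0.737 and 1.46 with it. It was higher with TGF-β2 in each transfection, but the 2 sets overlapped, since the miR-31 inhibitor library with TGF-β2 lay below the untreated control. Its difference of 0.93 ± 0.24 passed narrowly (limma adjusted p = 0.0284) and was lost in 7 of 11 alternative settings, with a largest adjusted p of 0.137.

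Markers of a mesenchymal state also moved with TGF-β2. Of 12 such markers 5 were tested and all 5 rose, where 22.7% of all genes tested did, with a summed level over the 12 of 26.3 to 35.2 FPKM without TGF-β2 and 253 to 266 with it. Fn1, the fibronectin gene, made up most of that sum, Tagln and Cnn1 stayed under 1 FPKM, and Postn was at 0 in each library. The endothelial markers split. Of the 13 tested, 4 (30.8%) rose, led by Vwf (3.93), and 5 (38.5%) fell, led by Kdr (−0.80). Over all genes tested 22.7% rose and 27.5% fell. Of the 2 leukocyte markers tested, Cd68 fell (−0.65) and Lyz2 rose (0.21). Krt18, the 1 epithelial marker tested, fell from 38.2 at the least without TGF-β2 to 15.8 FPKM at the most with it. Krt19 and Cldn4, too low to be tested, were higher with TGF-β2 in each transfection. The part of such a change of state in the values of the 40 genes was not tested.

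**Figure D2:**
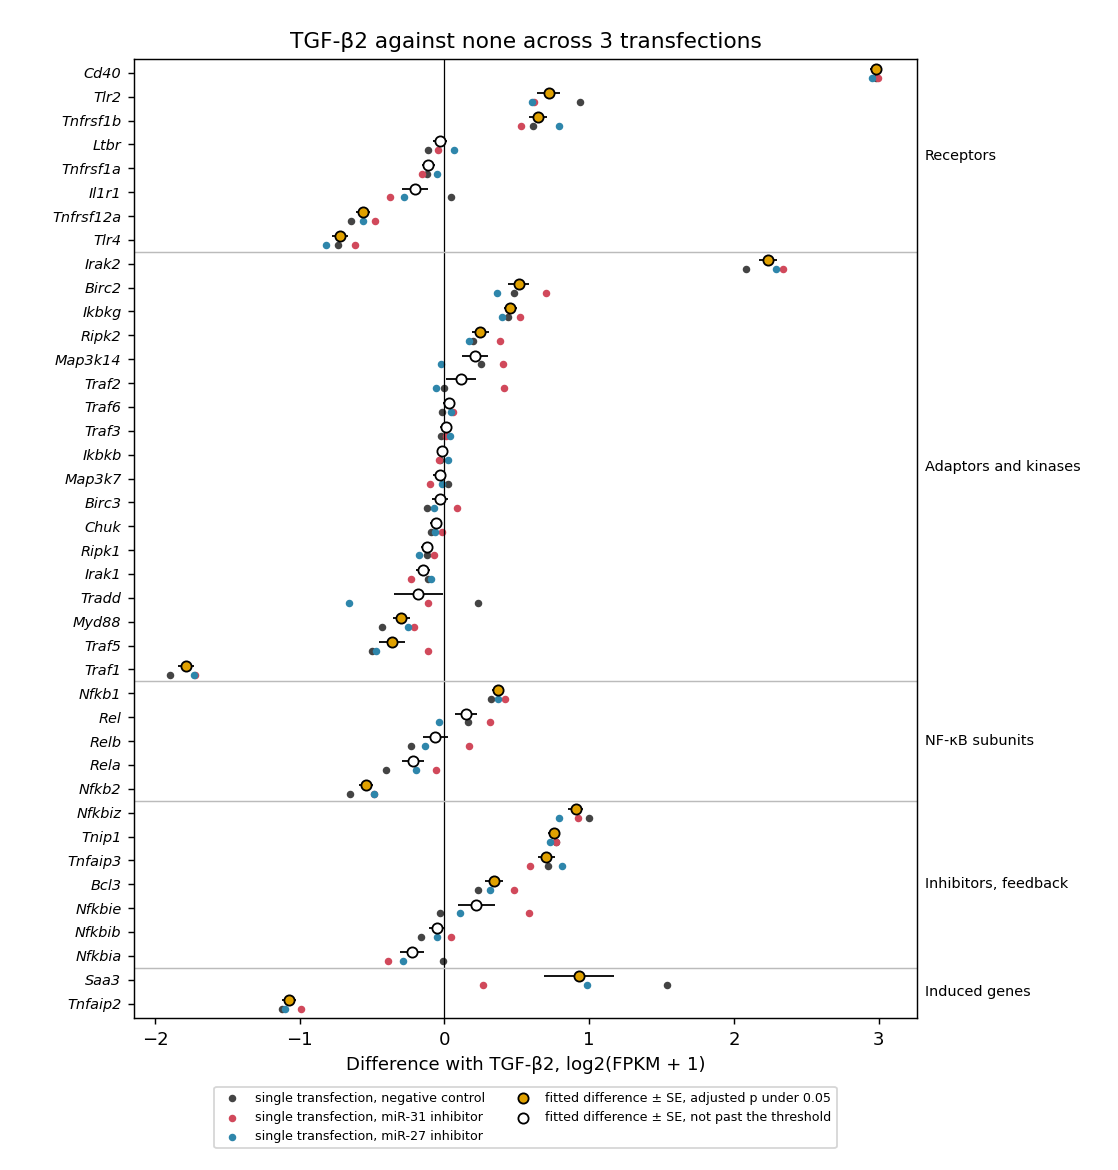
Difference with TGF-β2 on the log2(FPKM + 1) scale for each of the 40 genes; small points are the 3 single transfections (1 pair of libraries each), large points the fitted difference with its SE, filled where the limma adjusted p was under 0.05. Cd40 at 2.98 and Irak2 at 2.24 lie far to the right, Traf1 at −1.79 and Tnfaip2 at −1.07 to the left, and Tradd and Saa3 have the widest scatter between transfections.

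Promoters were read because several feedback genes rose together and the pathway's targets classically carry κB sites. The κB consensus, the motif bound by NF-κB dimers, was searched on both strands in RefSeq promoters from 250 bases before to 50 bases after each start (build GRCm38.p6), and overlapping matches were kept. Of the 40 genes, 32 had a promoter entry, and 13 of those (40.6%) held a match, against 12.5% of 7749 tested genes with an entry. By promoter it was 16 of 42 (38.1%) against 8.46% of all 32851 promoters of the same length. These stretches come from 4 genes that rose, 2 that fell and Nfkbia, each written 5′ to 3′ along its gene with the match in capitals:
Tnip1: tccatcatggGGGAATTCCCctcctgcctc
Tnfaip3: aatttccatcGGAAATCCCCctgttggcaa
Bcl3: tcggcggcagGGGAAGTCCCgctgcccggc
Tlr2: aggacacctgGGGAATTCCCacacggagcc
Nfkb2: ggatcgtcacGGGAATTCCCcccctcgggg
Tnfaip2: gactattttaGGAGGGCCCCtccagggtcg
Nfkbia: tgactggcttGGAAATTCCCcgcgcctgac

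On GRCm38.p6 these promoters are on the minus strand at chr11:54962891-54963190 for Tnip1, chr10:19015361-19015660 for Tnfaip3, chr7:19822706-19823005 for Bcl3, chr3:83841559-83841858 for Tlr2 and chr12:55492598-55492897 for Nfkbia. They are on the plus strand at chr19:46304487-46304786 for Nfkb2 and chr12:111442411-111442710 for Tnfaip2. The matches begin at −57 from the start for Tnip1, −12 for Tnfaip3, 2 for Bcl3, −172 for Tlr2, −39 for Nfkb2, −24 for Tnfaip2 and −29 for Nfkbia. Tnip1, Tlr2 and Nfkb2 carry the same letters there, yet under TGF-β2 Tnip1 and Tlr2 rose and Nfkb2 fell. Of the 13 members with a match, 4 rose, 2 fell and 7 did not pass. Of the 19 without one, 5 rose, 4 fell and 10 did not pass. A match is a description of the letters and not of binding.

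The miR-31 inhibitor had no member past the threshold over both TGF-β2 states. In the same limma fit 0 of 40 members were called, as were 0.0339% of all genes tested (4 genes), and the smallest adjusted p among members was 0.227. At an unadjusted p under 0.05 there were 5 members, among 2135 genes. For the miR-27 inhibitor 0 of 40 were called, against 0.00846% of all genes, with a smallest adjusted p of 0.317 and 3 members at an unadjusted p under 0.05, among 1470 genes. Leaving out the untreated miR-31 inhibitor library changed this, for some members and for many other genes. The fitted differences of those members were 0.52 for Traf2, 0.37 for Relb, 0.36 for Birc2, 0.32 for Traf5 and −1.53 for Saa3. Passing in that fit was not particular to the members, since many other genes passed too. In that fit the inhibitor's value rests on 1 library, which is assumed to vary like the others.

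The remaining inhibitor values are differences of 2 libraries without a test, and both inhibitors were set against the same control library. Stk40, which is not one of the 40, was at 2.43, 2.79 and 2.12 FPKM without TGF-β2 and at 1.21, 2.53 and 1.27 with it. Under TGF-β2 the miR-31 inhibitor library thus kept a level near the untreated ones while the other 2 were about as low as each other. Against the control the miR-31 inhibitor library was higher by 0.68 with TGF-β2 and by 0.14 without.

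No member was higher by as much. With TGF-β2, 1 member (2.5%), Traf2, was at least 0.5 higher in the miR-31 inhibitor library than in the control, against 2.25% of all genes tested, and 1 (2.5%), Saa3, was at least 0.5 lower, against 1.21%. Both shares are those of a single gene. For the miR-27 inhibitor the same counts were 0 members higher, against 0.508%, and 1 lower, again Saa3, against 0.355%. Without TGF-β2, 0 members reached 0.5 in either direction with the miR-31 inhibitor, against 1.05% of all genes.

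Counted by sign, smaller differences leaned upward with TGF-β2. With TGF-β2, 26 of 40 members (65.0%) were above the control in the miR-31 inhibitor library and 14 below, with a median of 0.071, while 49.0% of all genes tested were above with a median of −0.0027. With the medians of the libraries made equal, the members' median was 0.039. That step shifts the difference of every gene in this pair of libraries by the same amount. Without TGF-β2, 16 of 40 (40.0%) were above, with a median of −0.017, against 55.2% of all genes. At a difference of at least 0.25 with TGF-β2, 9 of 40 members were higher and 6 of 40 lower, where 10.0% and 7.95% of all genes were. The members thus exceeded the share of all genes on both sides. Without TGF-β2, 4 of 40 passed it in either direction, where 6.69% of all genes did. Of the 3 libraries with TGF-β2, that of the miR-31 inhibitor was the highest for 24 members (60.0%), against 36.5% of all genes, and the lowest for 11 (27.5%), against 40.5%. Without TGF-β2 it was the highest for 6 members (15.0%), against 33.4%.

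**Figure D3:**
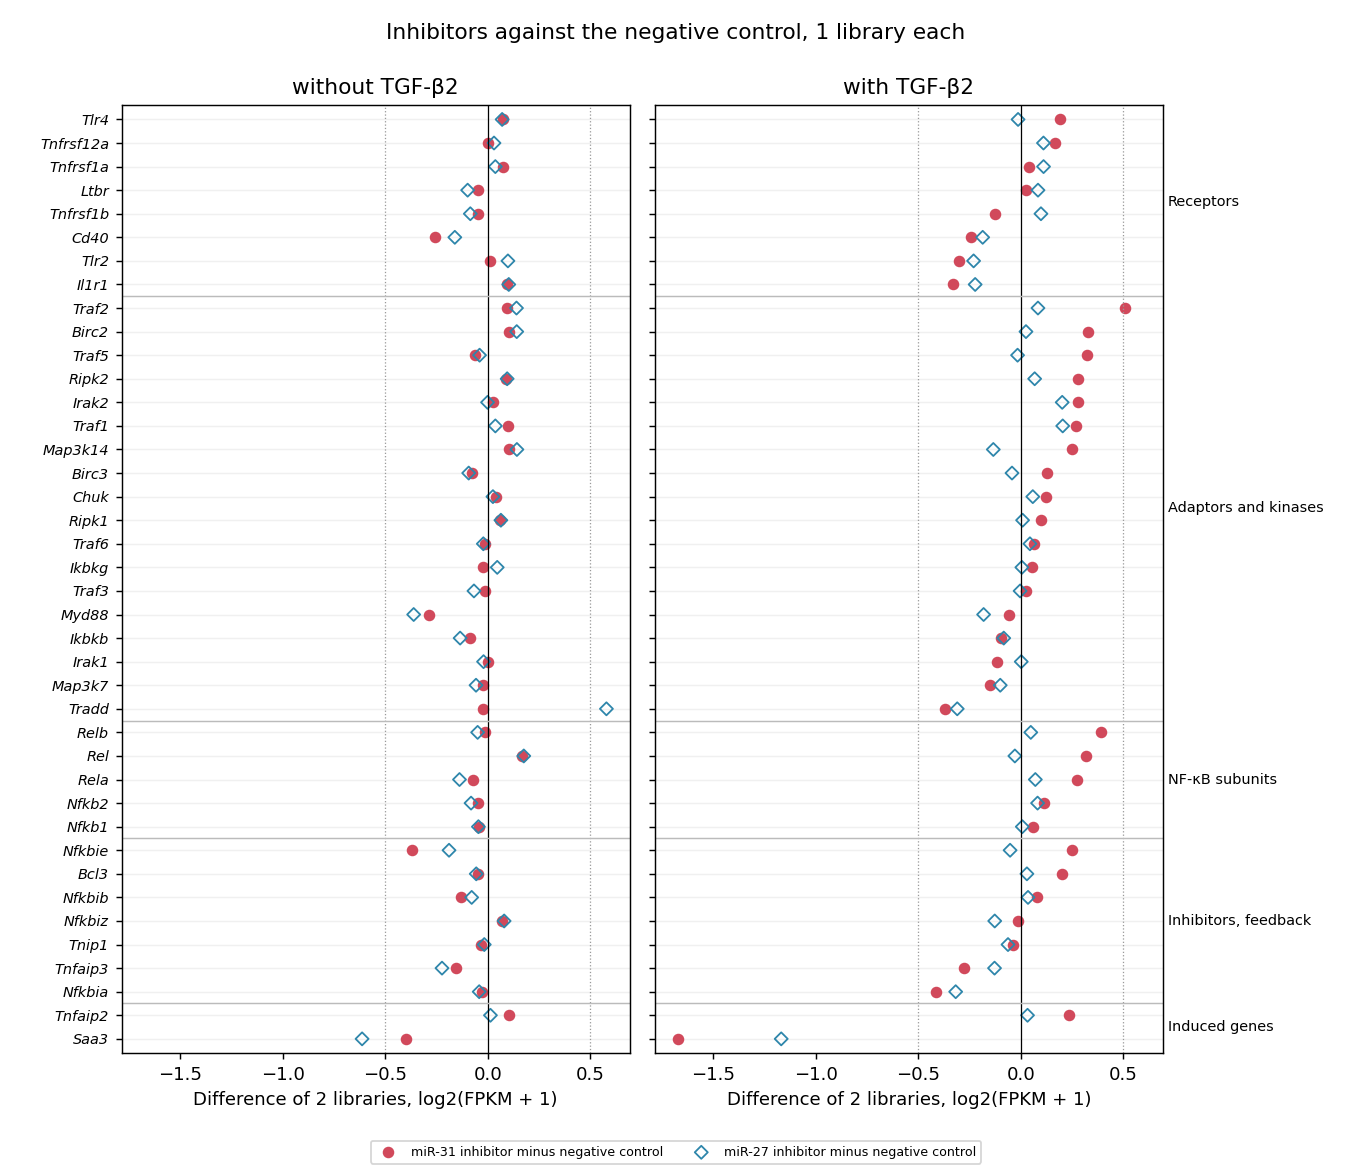
Difference of each inhibitor library from the negative control library on the log2(FPKM + 1) scale, without TGF-β2 (left) and with it (right), 1 library against 1; dotted lines mark 0.5 in either direction. With TGF-β2 the miR-31 inhibitor points of the 5 subunits all lie to the right of 0, Traf2 reaches 0.51 and Saa3 lies at −1.67.

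In the miR-31 inhibitor library with TGF-β2, all 5 subunits and 13 of the 18 adaptors and kinases were above the control. Over all genes tested 49.0% were, and these roles hold 5 and 18 of the 40 members. All 5 subunits were higher in that library than in the other 2 with TGF-β2, where it was the highest for 36.5% of all genes. Their median difference from the control was 0.27. Without TGF-β2 that inhibitor's library was the highest for 0 of the 5, against 33.4% of all genes. Relb was 0.39 above the control (134% of its FPKM), Rel 0.32, Rela 0.27, Nfkb2 0.11 and Nfkb1 0.06. The same differences for the miR-27 inhibitor were 0.05, −0.03, 0.07, 0.08 and 0.01. Among the 18 adaptors and kinases the median difference of the miR-31 inhibitor from the control with TGF-β2 was 0.11, against −0.0027 over all genes tested. Traf2, a ubiquitin ligase adaptor common to most TNF receptors (chr2:25373502-25402414, mm9), was at 7.13, 7.68 and 7.96 FPKM without TGF-β2 and at 7.11, 10.5 and 7.59 with it. One library therefore stands above 5 that lie within 1 FPKM of each other, and it held 148% of the control's FPKM. Birc2 (0.33), Traf5 (0.32), Ripk2 (0.28), Irak2 (0.28), Traf1 (0.27) and Map3k14 (0.25) were next.

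Receptors and inhibitors were divided. Of 8 receptors 4 (50.0%) were above the control and 4 below, where 49.0% of all genes tested were above. Il1r1 was lowest at −0.33 (74.9% of the control's FPKM) and Tlr2 was at −0.30. Nfkbia was at −0.41 for the miR-31 inhibitor and −0.32 for the miR-27 inhibitor. Tradd was at −0.37 and −0.31, and Saa3 at −1.67 and −1.17, in the same order. In each of these 3 genes the control with TGF-β2 was the highest of the 3 treated libraries. Tnfaip3 was at −0.28 and −0.13. With TGF-β2 the miR-31 inhibitor library was at least 0.25 above both other libraries for 5 of the 40 members, where 4.89% of all genes were. These were Traf2, Relb, Birc2, Traf5 and Rel. That library was at least 0.25 below both for 1 member, Saa3, and the share of all genes on that side was not taken.

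The response to TGF-β2, the difference between the 2 libraries of a transfection, was compared in the same way. It lay at least 0.25 above both other responses in the miR-31 inhibitor cells for 4 members (10.0%), Traf2, Relb, Traf5 and Nfkbie, against 5.14% of all genes tested. It lay at least 0.25 below both for 1 member (2.5%), Saa3, against 3.83%. For Nfkbie, which encodes IκBε, the responses were −0.03 in the control, 0.59 for the miR-31 inhibitor and 0.11 for the miR-27 inhibitor. The untreated miR-31 inhibitor library was the lowest of the 6, since Nfkbie stood at 4.32, 3.12 and 3.67 FPKM without TGF-β2 and at 4.21, 5.19 and 4.02 with it. For Traf5 the 3 responses were −0.50, −0.11 and −0.47.

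**Figure D4:**
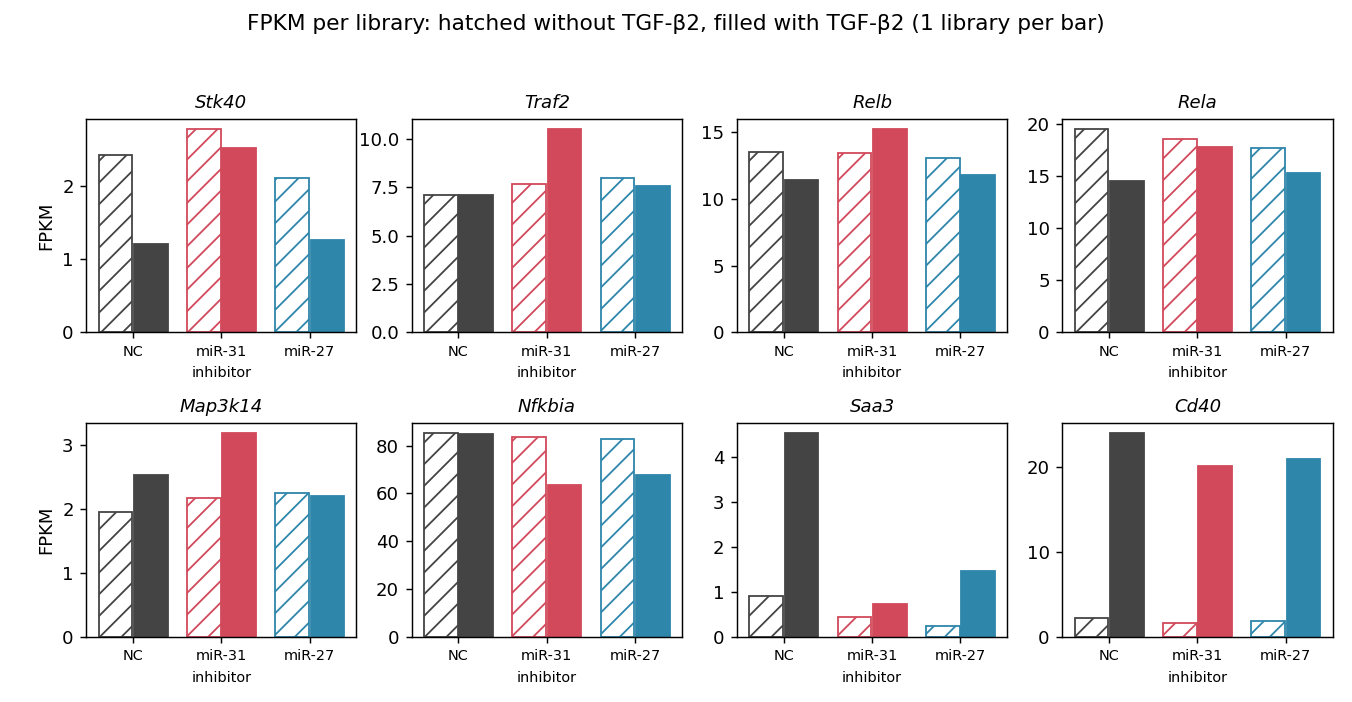
FPKM of Stk40 and 7 members in each library, 1 bar per library from 0, hatched without TGF-β2 and filled with it. Traf2 and Relb share with Stk40 a filled miR-31 inhibitor bar above both other filled bars, Cd40 has 3 similar filled bars, and Nfkbia and Saa3 have their highest filled bar in the negative control.

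Genes of the ATF4 and CHOP stress response were above the control under TGF-β2 with both inhibitors, more so with that of miR-31. Of 22 such genes 21 were tested. In the miR-31 inhibitor library all 21 were above the control, with a median of 1.14. Of them 16 (76.2%) were so by at least 0.5, where 2.25% of all genes tested were. In the miR-27 inhibitor library 20 were above it, with a median of 0.43. There 8 (38.1%) were at least 0.5 higher, where 0.508% of all genes were. Their summed level was 974 FPKM in the control with TGF-β2, 2382 for the miR-31 inhibitor and 1298 for the miR-27 inhibitor. Ddit3, which encodes CHOP, was at 19.6, 298 and 39.8 FPKM in these libraries. Without TGF-β2 all 21 were also above the control in the miR-31 inhibitor library and 20 in the miR-27 inhibitor library, each with a median of 0.22. The part of this in the values of the 40 genes was not tested.

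Seed matches give the sequence side of the inhibitor comparison. The mature microRNAs, from RefSeq on GRCm38.p6, are written 5′ to 3′ with the seed, bases 2 to 8, in capitals, and both miR-27 forms share a seed:
mmu-miR-31-5p: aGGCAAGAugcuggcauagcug
mmu-miR-27a-3p: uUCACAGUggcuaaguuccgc
mmu-miR-27b-3p: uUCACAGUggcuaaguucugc

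They are encoded at chr4:88910614-88910635 (minus strand) for miR-31, chr8:84208727-84208747 (plus strand) for miR-27a and chr13:63300760-63300780 (plus strand) for miR-27b. The 7-base complement of the miR-31 seed, TCTTGCC, was searched in the longest annotated 3′ UTR of each gene (GENCODE vM21). It was in 4 of 40 members (10.0%), against 13.3% of 9550 tested genes, with median 3′ UTR lengths of 1254.5 and 1204.5 bases. The miR-27 complement, ACTGTGA, was in 9 members (22.5%), against 17.9%. Stk40 held 3 matches for miR-31, at bases 655, 1029 and 1334 of its 3′ UTR of 2001 bases. The matches of Stk40 and of the 4 members are shown with 10 bases on each side, the match in capitals:
Stk40: ctaggagcccTCTTGCCagttcctctc
Stk40: tggatgcccgTCTTGCCagaaacgctg
Stk40: tggggccaccTCTTGCCagcagtagca
Tnip1: acaccctgccTCTTGCCaagacaagga
Tnfrsf1b: tctcctgggcTCTTGCCtgattcttgc
Il1r1: tggccagcccTCTTGCCtgtcatccca
Ikbkg: ctggtaccttTCTTGCCggtgaactgc
Ikbkg: ggtcccttcaTCTTGCCttgactgtta

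None of these 4 members was higher than the control by 0.25 or more in the miR-31 inhibitor library with TGF-β2. Ikbkg was at 0.05, Tnip1 at −0.04, Tnfrsf1b at −0.13 and Il1r1 at −0.33. Traf2, Relb, Birc2, Traf5 and Rel, which were higher there than in both other libraries, held no miR-31 seed match in the 3′ UTR searched. No match says only that these letters are not in this stretch.

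Other genes of the pathway, on lists drawn up by name, were set beside the 40. Of 41 further adaptors, kinases and deubiquitinases 37 were tested, and 6 rose and 12 fell with TGF-β2, together 48.6%, near the 50.2% of all genes tested. Ripk3, the kinase of necroptosis, fell by 0.99 and Rnf31, a linear ubiquitin ligase, by 0.54, Tank rose by 0.68, and Stk40 fell by 0.40. In the miR-31 inhibitor library with TGF-β2 their median difference from the control was 0.035, with Ticam1, the TLR adaptor TRIF, at 0.73, Stk40 at 0.68, Nfkbil1 at 0.50 and Tnip2 at 0.49. Of 47 further receptors and ligands 31 stayed under 1 FPKM in all libraries, among them Tnf, Lta and Il1b, and Cd40lg was listed at 0. Of the 15 tested, 6 (40.0%) rose and 5 (33.3%) fell with TGF-β2, where 22.7% and 27.5% of all genes did, led by Lbp (1.28), Tnfrsf9 (1.07), Sigirr (−0.64) and Il18 (0.62). With the miR-31 inhibitor and TGF-β2, 4 of the 15 (26.7%) were above the control (median −0.16), against 49.0% of all genes tested (median −0.0027).

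Of 43 genes reported as NF-κB targets 30 were tested, and 16 (53.3%) rose and 9 (30.0%) fell with TGF-β2, where 22.7% and 27.5% of all genes tested did. Their median was 0.31, against −0.018 over all genes. The list was drawn up with earlier results known and this difference was not tested. The largest changes were in Ch25h (−2.39), Junb (2.30), Nuak2 (2.08) and Cx3cl1 (1.28), of which Junb is also a classical TGF-β target. Among the adhesion molecules Icam1 rose by 0.82 and Selp by 0.75, while Sele fell by 0.61. Ccl2, a monocyte chemokine, fell by 1.26. With the miR-31 inhibitor and TGF-β2, 9 of the 30 (30.0%) were above the control, with a median of −0.22. Over all genes tested 49.0% were above, with a median of −0.0027. The miR-31 inhibitor library was the lowest of the 3 for 16 (53.3%), where it was for 40.5% of all genes. At least 0.5 higher were Cxcl2 (0.81) and Gadd45b (0.66), 6.67% of the 30 against 2.25% of all genes. At least 0.5 lower were Cx3cl1 (−0.58), Ch25h (−0.55) and Plau (−0.50), 10.0% against 1.21%. The medians of the 40 members (0.071, or 0.039 with equal medians) and of the targets thus differ in sign in this pair of libraries. Making the medians equal shifts both downward by the same amount. Neither was tested.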

How the data were processed

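The authors deposited 1 table of FPKM for 6 libraries. Per the submitters' processing notes, TopHat2 2.0.9, Cufflinks 2.1.1 and the mouse build mm9 were used, while the annotation, counting options and filters are not given in the sources used here. The libraries were directional and made from RNA depleted of ribosomal RNA, per the labels' protocols. Without rescaling, log2(FPKM + 1) was taken, and the 11816 genes averaging 1 FPKM or more entered the test. An additive model of inhibitor and TGF-β was fitted with limma 3.58.1 (R 4.3.3), with 2 residual degrees of freedom and a prior of 2.87. Tests were 2-sided, with Benjamini-Hochberg adjustment and a threshold of 0.05. The residual spread holds noise together with any true dependence of the response on the inhibitor. The script was tested on simulated data.

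Pairs of single libraries were counted at 0.5 and 0.25. Listed starts count from 0 and are printed counted from 1. RefSeq and GENCODE sequences were matched by symbol on GRCm38, without mixing coordinates. The 40 members and all lists were chosen with earlier results of these data known. All 6 values are given for the subunits, Nfkbia, Tnfaip3 and Map3k14, the 10 largest called TGF-β changes, and the 6 largest differences of the miR-31 inhibitor from the control with TGF-β. In each list of further pathway genes or targets up to 4 tested genes with the largest change are named. Cell type markers were named without that rule. Nfkbie, Icam1, Selp, Sele, Ccl2 and Ddit3 are also outside the rule and were chosen after their values were seen. Alternatives were another pseudocount, no filter, equal medians, trend and robust options, no inhibitor term, and each library left out.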

Additional observations from a re-analysis of the deposited data

Results flagged for a closer look

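In 2 members the 1 pair of libraries of an inhibitor moved the opposite way to the control pair under TGF-β2. For Relb the response was −0.23 in the negative control and 0.17 with the miR-31 inhibitor. For Tradd it was 0.23 in the negative control, −0.12 for the miR-31 inhibitor and −0.66 for the miR-27 inhibitor. With 1 library per condition the difference was not tested in any of the 3 cases, and only responses of at least 0.1 in size were considered. The share of all genes tested that met this rule is not given here, so the count is not read as a result about the members.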

How the results depend on the processing

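Of the 20 members called for TGF-β, 16 kept their direction and their call in all 11 alternatives. Traf5 was not called in 5 of them, Saa3 in 7, Myd88 in 3 and Ripk2 in 3. The number that rose, 13, was 13 with a pseudocount of 0.1 or equal medians, 12 without the inhibitor term or with trend and robust options, 11 without a filter and 11 to 13 with a library left out. The number that fell, 7, was 7, 7, 8, 9 and 5 in those settings and 6 to 9 with a library left out. Leaving out one library of a pair takes its partner out of the TGF-β comparison too, so both give the same value. Calls over all genes went from 5926 to 3566 without either control library. Of the 8 members not called that the rule for named genes chose, the sign of the TGF-β difference turned for 3. With a library left out Relb ran from −0.18 to 0.019, the highest without a control library. Tradd ran from −0.39 to 0.059, the highest without a miR-27 inhibitor library. Traf2 ran from −0.033 to 0.20, the lowest without a miR-31 inhibitor library. Calls for the miR-31 inhibitor among members were 0 in the alternatives run, except without the untreated miR-31 inhibitor library. There some members and many other genes passed, on 1 library of that inhibitor. For the miR-27 inhibitor they were 0 in all of them. The median difference of the miR-31 inhibitor from the control with TGF-β2 was 0.039 with equal medians. Among 3 settings chosen after seeing the data for the 6 named members, a pseudocount of 0.1 took Saa3 from −1.67 to −2.47. The inhibitor term already pairs the libraries of a transfection, and the labels give no replicate numbers for another pairing. The table gives no fragment counts, so what depth limits at low levels, as for Rel, Bcl3 and Saa3, cannot be stated as an interval.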

Other observations

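Itch, a ubiquitin ligase on the list of further adaptors, was listed at 0 in the untreated negative control and at 25.7 to 29.6 FPKM in the 5 other libraries. Such a 0 can be a failed estimate, and the gene did not pass for TGF-β2 (1.73, limma adjusted p = 0.217). Among the names that share a place with a member, AK016486 at the place of Traf5 was at 1.81 to 2.52 FPKM, close to Traf5 itself at 1.61 to 2.72. Serpinb6a at the place of Ripk1 went from 236, 255 and 258 FPKM without TGF-β2 to 135, 129 and 135 with it, in the order negative control, miR-31 inhibitor and miR-27 inhibitor.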
